A study of Mus musculus with 16 samples.

Results

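The comparison described here set the cortex of heterozygotes, mice with the P301S tau transgene and 1 Trem2 allele (P301S+ TREM2+/-, 4 mice), against the cortex of controls, mice that lacked the transgene and had both copies of Trem2 (TREM2+/+, 4 mice). It used 8 of the 16 libraries of the series. Of the 24060 genes listed, 12055 were tested, those with a mean of at least 1 RPKM over the 8 libraries, where RPKM scales the reads of a gene by its length in kilobases and by each 1000000 reads of the library. All mice were 8 to 9 months old, on a background given as C57BL/6; C3, and each genotype held 2 females and 2 males. The remaining mice carried the same transgene with both Trem2 alleles (P301S+ TREM2+/+, 4 mice) or with none (P301S+ TREM2-/-, 4 mice, called knockouts). They entered the fits only so that the 4 genotypes shared 1 estimate of the spread, and for direct tests against the heterozygotes. The heterozygotes differed from the controls in the transgene and in the Trem2 dose at the same time, so the contributions of these changes cannot be told apart in this contrast. The labels give neither the promoter of the transgene, nor the deleted stretch of Trem2, nor a litter, batch or dissection day. Replicate numbers within a genotype are names only, and p-values measure the spread between these samples.

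Tau, encoded by Mapt, binds and steadies the microtubules of axons, and the P301S mutation makes it prone to aggregate in neurons. Trem2 encodes a lipid-sensing receptor on microglia, the macrophages that live in the brain, and passes its signal through the adapter Tyrobp. In mouse models of neurodegeneration, microglia lower some of their resting genes and raise a set that includes Apoe, Cst7, Clec7a and Lyz2, a shift known to depend in part on Trem2. Type I interferon, complement and reactive astrocyte genes often move along with it. In bulk tissue, more cells of a type and more RNA per cell cannot be told apart.

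The heterozygote libraries held 9.29 M ± 1.96 reads (M, 1000000 reads; SD, n = 4) and the control libraries 8.26 M ± 4.24 (SD, n = 4), a difference that a two-sided exact permutation test did not separate (p = 0.714). Control replicate 3, a female, stood apart before any contrast. Its median correlation with the other libraries over genes was 0.756, against 0.940 to 0.979 for the rest. Small nucleolar RNAs took 750.2 of each 1000000 of its reads, against 19.6 to 65.6 elsewhere, and the ribosomal precursor Rn45s took 4.45%, against 1.14 to 2.76%. Differences, list medians and counts of genes passing a test are therefore given without this library and with all libraries, and without it the control group holds only 1 female. Heterozygote replicate 3, labelled male, had 0.400 RPKM of the X-inactivation RNA Xist, against 0.00622 to 0.0879 in the other males. Defining markers of cortical neurons were present in all 8 libraries, with Slc17a7 at 64.0 to 274 RPKM, Tbr1 at 25.4 to 169, Neurod6 at 20.8 to 111, Rorb at 6.65 to 18.2 and Cux2 at 1.12 to 3.54.

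Trem2 itself did not differ between the groups by a margin the fit could separate. Its level was 4.50 and 8.37 RPKM in the female heterozygotes (replicates 1 and 2) and 25.2 and 13.6 RPKM in the males (replicates 3 and 4), against 10.01, 12.1, 20.2 and 7.35 RPKM in control replicates 1 to 4. The groups overlapped: heterozygote replicate 1 lay below every control, replicate 2 within the control range, and both males above the 3 controls other than replicate 3. The log2 difference on the log2(RPKM + 1) scale was 0.20 (SE 0.43, limma adjusted p = 0.940) without control replicate 3 and -0.09 (adjusted p = 0.924) with all libraries. The means of the other tau genotypes were 27.0 RPKM with both alleles and 2.09 RPKM in the knockouts. Trem2 lies at chr17:48346401-48354147 on the plus strand of GRCm38, and which part of the gene the reads came from was not analysed here.

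Tyrobp, the signalling adapter of Trem2, was at 24.1, 46.3, 118 and 107 RPKM in the heterozygotes and at 31.9, 29.1, 14.5 and 27.7 RPKM in the controls. Heterozygote replicates 2 to 4 lay above every control and replicate 1 did not. The difference was 1.14 (SE 0.43, limma adjusted p = 0.493) without control replicate 3 and 1.28 with it. Dividing Trem2 by Tyrobp within each library, where both genes come from microglia, gave a narrower picture of the Trem2 dose. The ratio was 0.177 ± 0.0360 (SD, n = 4) in the heterozygotes, 0.323 ± 0.0392 (SD, n = 4) in the P301S+ TREM2+/+ mice and 0.0526 ± 0.0183 (SD, n = 4) in the knockouts. The heterozygotes did not overlap either tau genotype (two-sided exact permutation p = 0.0286 for each, 0.0381 after adjustment over 4 comparisons). In the 3 controls without replicate 3 it was 0.332 ± 0.0775 (SD, n = 3), above all heterozygotes, with an exact permutation p of 0.0571, the smallest that 4 against 3 mice allow. Control replicate 3 had a ratio of 1.39.

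Mapt, which encodes tau, was at 107, 104, 103 and 92.6 RPKM in the heterozygotes and at 102, 129, 188 and 99.4 RPKM in the controls. The groups overlapped, and the difference was -0.13 (SE 0.12, limma adjusted p = 0.828) without control replicate 3 and -0.30 with it. Reads of a human tau transgene are not listed apart from the mouse gene, so its level is not given by these values.

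**Figure D1:**
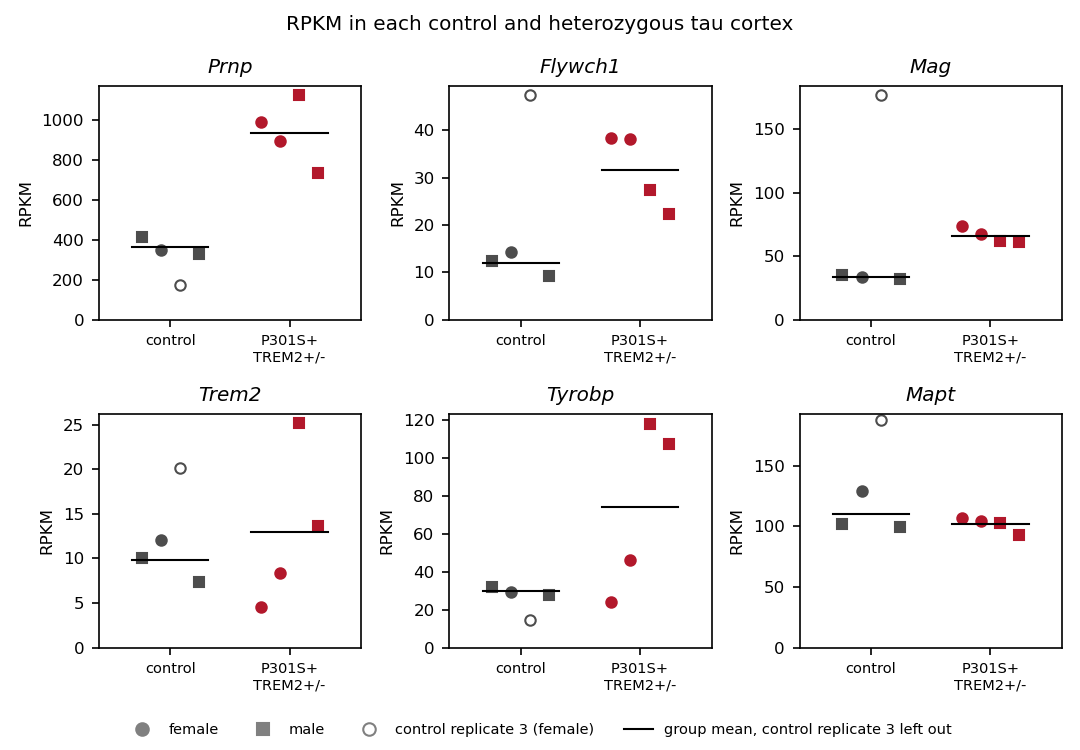
RPKM of 6 genes in each control and heterozygote library, with circles for females, squares for males, an open circle for control replicate 3 and a line at the group mean without that library. Prnp separates the groups with every library in, Flywch1 and Mag separate them only when control replicate 3 is left out, and Trem2, Tyrobp and Mapt overlap.

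Over all genes, few single genes passed. With all libraries, 0 of 12055 genes passed an adjusted p of 0.05 (limma, Benjamini-Hochberg, 0%), while 1158 reached an unadjusted p under 0.05 (9.61%), 761 higher (6.31%) and 397 lower (3.29%). Without control replicate 3, 3 genes passed (0.0249%), all higher in the heterozygotes: Prnp, Flywch1 and Mag. In that fit 1054 genes reached an unadjusted p under 0.05 (8.74%), 601 higher (4.99%) and 453 lower (3.76%). The 4 heterozygotes lay wholly above the 4 controls for 321 genes (2.66%) and wholly below for 202 (1.68%). Against the 3 controls these counts were 549 (4.55%) and 654 (5.43%). The median log2 difference over all genes tested was 0.02 without control replicate 3 and 0.08 with it.

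Prnp encodes the cellular prion protein, a membrane-anchored protein of neurons. It was at 989.6, 894, 1120.3 and 733 RPKM in the heterozygotes and at 415, 350.4, 174 and 326 RPKM in the controls, with control replicate 3 the lowest. With every library in, the groups did not overlap. Prnp rose by 1.35 on the log2 scale (SE 0.15, limma adjusted p = 0.0039) without control replicate 3, while with all libraries the difference was 1.61 and missed the threshold (adjusted p = 0.0844). The P301S+ TREM2+/+ mice averaged 866 RPKM and the knockouts 907 RPKM, and neither differed from the heterozygotes by a margin the fit could separate (differences of 0.10 and 0.03, SE 0.14 each). Prnp lies at chr2:131909928-131938429 on the plus strand, where the annotated gene Prn shares exon sequence on the same strand. Some tau lines carry their transgene within sequence of the prion protein gene, and the labels do not say whether this one does. Reads of the mouse gene and of such a transgene cannot be told apart here.

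Flywch1, a gene for a zinc finger protein, was at 38.4, 38.2, 27.4 and 22.4 RPKM in the heterozygotes and at 12.3, 14.2, 47.4 and 9.26 RPKM in the controls. Leaving out control replicate 3, the highest of all 8, separated the groups. Flywch1 then rose by 1.27 (SE 0.16, limma adjusted p = 0.0066), against a difference of 0.84 with all libraries (adjusted p = 0.497). The P301S+ TREM2+/+ mice averaged 28.0 RPKM, near the heterozygotes. The knockouts averaged 9.22 RPKM, just under the 9.26 to 14.2 RPKM of the 3 controls. Their difference from the controls was -0.38 without control replicate 3 (limma adjusted p = 0.984). Flywch1 lies at chr17:23752793-23771602 on the minus strand, on the chromosome that also holds Trem2, and overlaps 9530082P21Rik on the other strand. Its reads and those of the antisense partner cannot be separated, since the sources used here do not say whether strand was used in counting.

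Mag encodes myelin-associated glycoprotein, an adhesion molecule on the myelin membrane next to the axon. It was at 74.0, 67.5, 62.2 and 60.9 RPKM in the heterozygotes and at 35.4, 33.5, 177 and 32.5 RPKM in the controls. The heterozygotes formed a narrow band well above the other controls, and control replicate 3 lay above both. Mag rose by 0.92 (SE 0.13, limma adjusted p = 0.0209) without that library, against a difference of 0.36 (adjusted p = 0.648) with it. The P301S+ TREM2+/+ mice averaged 64.0 RPKM and the knockouts 50.8 RPKM. Mag lies at chr7:30899176-30914873 on the minus strand. These 3 calls rest on few control mice: without control replicate 4 as well, the adjusted p was 0.0542 for Prnp and 0.0793 for Flywch1, and leaving out any further control or heterozygote gave Mag an adjusted p of 0.0626 to 0.191.

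**Figure D2:**
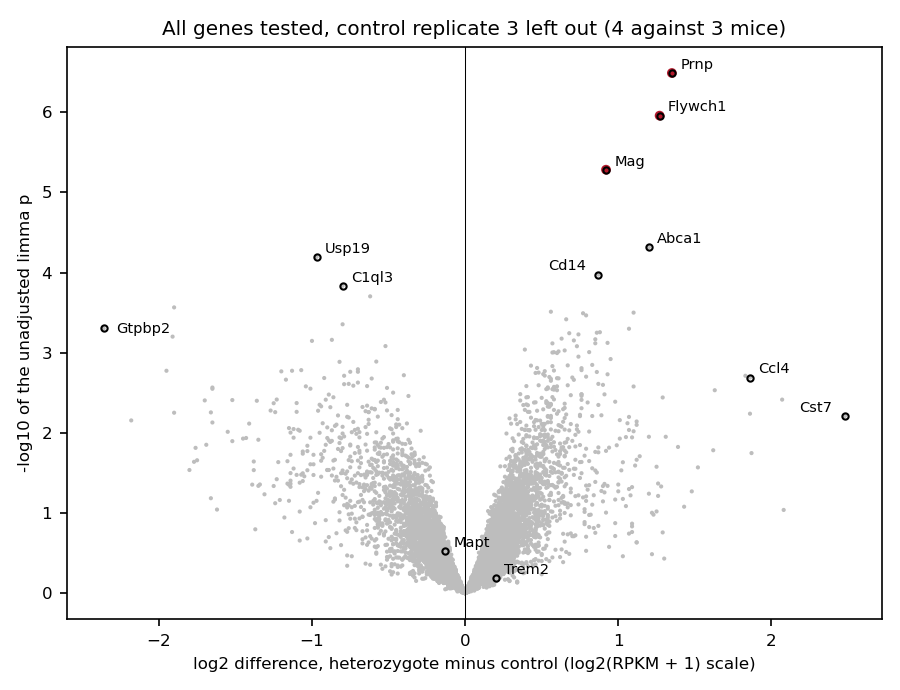
Log2 difference between heterozygotes and controls (x) against minus log10 of the unadjusted limma p (y) for the 12055 genes tested, with control replicate 3 left out (4 against 3 mice). Prnp, Flywch1 and Mag (filled, dark red) are the genes that passed after adjustment, and Trem2 and Mapt lie near the bottom.

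None of the other genes of lowest p passed, and their values are given as a description. Abca1, the transporter that loads cholesterol onto apolipoproteins, was at 4.08, 5.31, 11.8 and 10.7 RPKM in the heterozygotes and at 3.06, 2.79, 4.64 and 3.07 RPKM in the controls (difference 1.20, SE 0.21, limma adjusted p = 0.145 without control replicate 3, and 0.94 with all libraries). Cd14, the co-receptor of toll-like receptor signalling on microglia, was at 1.40, 1.52, 2.39 and 2.21 RPKM against 0.901, 0.508, 0.128 and 0.562 RPKM (0.87, SE 0.16, adjusted p = 0.213, and 0.93 with all libraries, adjusted p = 0.195). All 4 heterozygotes exceeded every control for Cd14, and exceeded the 3 remaining controls for Abca1. C1qtnf4 is a secreted protein of the C1q and tumour necrosis factor family. Like Flywch1, it was higher in heterozygotes and P301S+ TREM2+/+ mice than in knockouts and the 3 remaining controls. It was at 34.0, 46.0, 25.5 and 26.9 RPKM in the heterozygotes and at 14.5, 18.5, 124 and 10.5 RPKM in the controls (1.07, SE 0.24, adjusted p = 0.307, and 0.37 with all libraries), with means of 40.0 RPKM in the P301S+ TREM2+/+ mice and 10.1 RPKM in the knockouts. Plekhb1, Vamp5, Gsn, Ttyh2, Mir5136 and the oligodendrocyte transcription factor Nkx6-2 were higher by 0.56 to 1.10 with an adjusted p of 0.307 each, and by 0.23 (Nkx6-2) to 1.70 with all libraries. Mir5136 set both upper ends and rested on few reads, 8, 9, 4 and 12 in the heterozygotes and 3, 5, 0 and 2 in the controls. Pmp22, a membrane protein of myelin-forming cells, stood at 25.8 to 32.6 RPKM in the heterozygotes and 9.87 to 20.7 RPKM in the controls, with no overlap (0.85, adjusted p = 0.307, and 0.99 with all libraries).

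Among genes with lower values in the heterozygotes, none passed either. Usp19, a deubiquitinating enzyme, was at 14.1, 13.1, 19.8 and 11.7 RPKM in the heterozygotes and at 30.7, 28.3, 9.92 and 30.1 RPKM in the controls (-0.97, SE 0.17, limma adjusted p = 0.154 without control replicate 3, and -0.62 with all libraries). Gtpbp2, a GTPase that acts with stalled ribosomes, was at 0.901, 1.04, 3.21 and 0.988 RPKM against 13.4, 14.0, 0.129 and 10.6 RPKM (-2.36, SE 0.53, adjusted p = 0.307, and -1.61 with all libraries). In both genes control replicate 3 lay on the other side of the heterozygotes from the other controls, so the groups overlapped with it and did not without it. Gtpbp2 lies at chr17:46161032-46169370. C1ql3, a secreted protein of excitatory synapses, separated the groups with every library in: 11.4, 8.97, 10.1 and 8.22 RPKM against 19.7, 17.1, 29.0 and 15.6 RPKM (-0.80, SE 0.16, adjusted p = 0.252, and -0.97 with all libraries). Nptx2, an activity-induced synaptic pentraxin, was likewise separate at 5.09, 5.70, 10.4 and 6.71 RPKM against 28.9, 29.1, 17.5 and 21.9 RPKM (-1.70, SE 0.49, adjusted p = 0.359, and -1.68 with all libraries). Its level was 3.10, 2.41, 15.4 and 24.3 RPKM in the P301S+ TREM2+/+ mice (mean 11.3) and 16.3 to 43.9 RPKM in the knockouts (mean 29.7). Erc2, a scaffold of the presynaptic active zone, and Pacsin1, a neuronal endocytic adapter, also had all heterozygotes below all controls, at 24.9 to 29.1 against 38.7 to 66.6 RPKM and 28.0 to 47.9 against 54.8 to 142 RPKM. Syt17, Tm9sf1, Dusp18, Cys1, Cinp and Znrf3 also had lower values, with adjusted p from 0.307 to 0.332. With all libraries Cys1 had a difference of 0.01 and the others -0.16 to -1.76.

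The small nucleolar RNAs Snord91a and Snord49a rested on few reads and on libraries at 0, and small nucleolar RNAs were also the class in which control replicate 3 stood apart. Snord91a was at 1.59, 0, 0 and 0 RPKM in the heterozygotes and at 6.75, 1.15, 0 and 5.61 RPKM in the controls. No fold is given for it.

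Genes of disease-associated microglia had mostly higher values in the heterozygotes, and the male mice carried most of this. Of the 28 genes listed, 24 were tested, and 22 of them were higher without control replicate 3, as were 54.8% of all genes tested (59.5% with all libraries). Their median difference was 0.63, against 0.02 over all genes tested, 10 reached an unadjusted p under 0.05, all higher (4.99% of all genes tested did), and none passed after adjustment. With all libraries the median was 0.72, with 22 higher and 11 at an unadjusted p under 0.05. The list mean, set against the mean of the 3 controls, was -0.14 and 0.44 in the female heterozygotes and 1.35 and 1.17 in the males. The median over the list was 0.21 between females and 1.19 between males. Some members passed the filter only through the heterozygotes, such as Clec7a (means 4.75 RPKM in heterozygotes and 0.143 in controls). That such members were higher follows from the filter.

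Cst7, an inhibitor of lysosomal cathepsins and a classical gene of this state, was at 0.387 and 2.72 RPKM in the female heterozygotes and 18.3 and 14.4 RPKM in the males, against 0.684, 0.210, 0.194 and 0 RPKM in the controls. The first heterozygote lay inside the control range and the males lay far above it (difference 2.48, SE 0.77, limma adjusted p = 0.383 without control replicate 3, and 2.33 with all libraries). Clec7a, the beta-glucan receptor dectin-1, showed the same order, at 0.0419, 1.04, 10.5 and 7.39 RPKM against 0.118, 0.212, 0.168 and 0.0739 RPKM. Lyz2, the lysozyme of myeloid cells, was at 3.07, 7.71, 27.6 and 24.1 RPKM against 4.21, 2.29, 0.362 and 2.55 RPKM (1.83, SE 0.48, adjusted p = 0.332, and 2.06 with all libraries). Apoe, the main lipid carrier of the brain, was at 602, 769, 1204 and 1161 RPKM against 599, 552, 1145 and 518 RPKM, so that all heterozygotes exceeded the 3 remaining controls by a small margin in replicate 1 (0.73, SE 0.24, adjusted p = 0.411, and 0.43 with all libraries). Ctsd, a lysosomal protease, was at 116, 177, 289.8 and 229.5 RPKM against 105, 122, 415 and 93.1 RPKM (0.89, SE 0.27, adjusted p = 0.383, and 0.36 with all libraries). Itgax, another gene of this state, fell under the filter, at 0 to 1.51 RPKM in the heterozygotes and 0.0335 to 0.142 RPKM in the controls.

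Resting microglial genes were mostly higher too, again through the males. Without control replicate 3, 54.8% of all genes tested were higher, 4.99% at an unadjusted p under 0.05. With all libraries these shares were 59.5% and 6.31%. Of the 20 homeostatic genes, all were tested, 16 were higher without control replicate 3, and the median was 0.46, with 9 at an unadjusted p under 0.05, all higher (0.35, 17 and 7 with all libraries for the median, the higher genes and those at that p). P2ry12, the purinergic receptor of resting microglia, was at 13.1, 16.5, 27.7 and 17.8 RPKM in the heterozygotes and at 15.4, 12.03, 3.27 and 13.8 RPKM in the controls (0.45, SE 0.15, limma adjusted p = 0.414, and 0.82 with all libraries). Tgfbr1, a receptor for the cytokine that keeps microglia in their resting identity, was at 3.45, 4.26, 5.09 and 6.31 RPKM against 3.33, 2.98, 1.65 and 3.48 RPKM, and only replicate 1 lay within the control range. Of 16 tested genes shared by microglia and macrophages, 15 were higher (median 0.50, 8 at an unadjusted p under 0.05). With all libraries the median was 0.37, with 15 higher and 4 at that p, 3 higher and 1 lower. Without control replicate 3, the medians between females were -0.03 for the homeostatic genes and -0.26 for this shared list. Between males they were 0.68 and 0.94. Leaving out heterozygote replicate 3 as well left 11 of the 16 shared genes higher. That list also holds the transferrin gene Trf, which oligodendrocytes express. Ctss, a cathepsin of microglia, was at 90.8, 196, 510.4 and 303 RPKM against 101, 119.9, 140.1 and 122 RPKM. The first heterozygote lay below the controls and the third stood highest. The 9 tested genes of Trem2 signalling had a median of 0.24 (0.33 with all libraries), with Inpp5d, the lipid phosphatase SHIP1, the named member whose heterozygotes lay wholly above the controls (1.91 to 3.27 against 0.696 to 1.58 RPKM, difference 0.56, adjusted p = 0.521, and 0.68 with all libraries).

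Complement genes were mostly higher, again through the males. Of the 9 tested, 8 were higher without control replicate 3 (54.8% of all genes tested were), with a median of 0.79 (0.76 with all libraries). Of these 9, 5 reached an unadjusted p under 0.05, all higher (4.99% of all genes tested did). C1qc, a chain of the initiating complex C1q, was at 61.1, 89.7, 224 and 148 RPKM in the heterozygotes and at 57.7, 59.8, 10.9 and 54.6 RPKM in the controls (1.07, SE 0.36, limma adjusted p = 0.415, and 1.58 with all libraries). C4b, which astrocytes and oligodendrocytes also express, was at 1.15, 3.12, 15.2 and 7.73 RPKM against 1.05, 1.08, 1.31 and 1.19 RPKM (1.63, SE 0.45, adjusted p = 0.335, and 1.47 with all libraries). C3ar1, the receptor for the C3a fragment, was at 0.644, 0.864, 2.54 and 2.49 RPKM against 0.533, 0.546, 0.444 and 0.352 RPKM, with no overlap. The list mean relative to the 3 controls was -0.23 and 0.37 in the females and at least 1.10 in both males. Complement component C3 itself fell under the filter. C3ar1 passed it only through the heterozygotes (means 1.63 RPKM, against 0.469 in controls), so its direction follows from the filter.

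**Figure D3:**
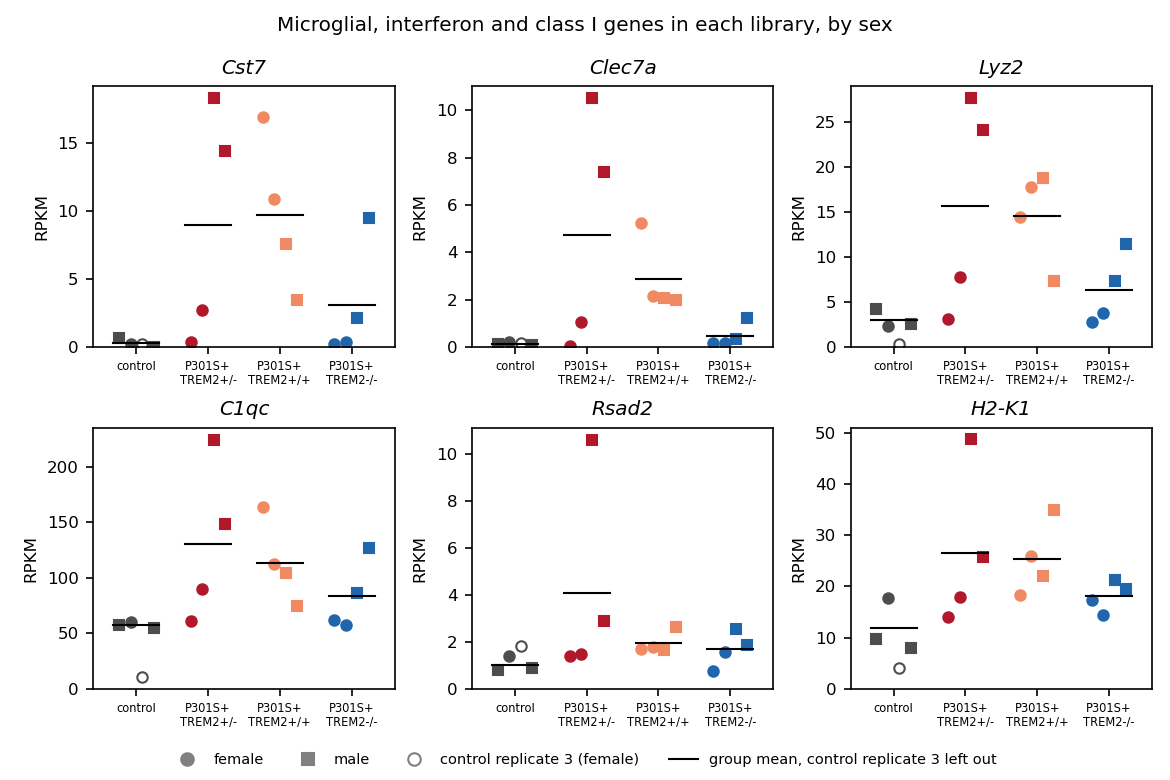
RPKM of 6 genes in each library of the 4 genotypes, by sex, with an open circle for control replicate 3 and a line at each group mean without it. In the heterozygotes the squares (males) lie above the circles (females) for all 6 genes, while the P301S+ TREM2+/+ females lie above the males for Cst7, Clec7a and C1qc.

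Class I antigen presentation was uneven. Of 9 tested genes 6 were higher without control replicate 3 (54.8% of all genes tested were), with a median of 0.37 (0.27 with all libraries). At an unadjusted p under 0.05, 4 were higher and 1 lower, where 4.99% and 3.76% of all genes tested were. Reads of the near-identical H2 genes are uncertain in how they divide. H2-K1, a class I heavy chain, was at 14.0, 17.9, 48.7 and 25.7 RPKM in the heterozygotes and at 9.84, 17.8, 4.06 and 7.98 RPKM in the controls (1.07, SE 0.33, limma adjusted p = 0.384, and 1.33 with all libraries). Psmb8, a subunit of the immunoproteasome that prepares peptides for class I, was at 4.06, 3.96, 17.8 and 10.5 RPKM against 3.31, 4.46, 0.781 and 4.54 RPKM. In both genes the males were highest and lay above every control. The 5 tested class II genes had a median of 0.55, with none at an unadjusted p under 0.05 (0.40 and 1 with all libraries). H2-Aa, a class II chain, was at 1.16, 5.31, 10.4 and 11.6 RPKM against 3.15, 3.36, 0.894 and 0.945 RPKM. Among 10 tested cytokine and NF-kB genes 9 were higher (median 0.42, and 0.75 with all libraries, where 9 were higher too). Ccl3 passed the filter only through the heterozygotes (means 2.31 RPKM, against 0.0875 in controls), so its direction follows from the filter. The chemokine Ccl4 was at 0.434, 2.34, 10.9 and 6.88 RPKM against 0.204, 1.15, 0 and 0 RPKM (1.86, SE 0.49, adjusted p = 0.332, and 1.86 with all libraries), and Ccl3 at 0.121, 0.392, 5.72 and 2.99 RPKM against 0, 0.350, 0 and 0 RPKM.

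Interferon-response genes were higher as a list, with 1 mouse far above the rest. All 21 tested members (of 24 listed) were higher without control replicate 3, with a median of 0.78, and 13 reached an unadjusted p under 0.05. With all libraries 20 were higher, with a median of 0.74 and again 13 at that p. None of them passed after adjustment. Some members passed the filter only through the heterozygotes, such as Irf7 (means 1.94 RPKM in heterozygotes and 0.391 in controls). Their direction follows from the filter and is no independent evidence. Over all genes tested, 54.8% were higher and 4.99% higher at that p without control replicate 3, and 59.5% and 6.31% with it. The list mean relative to the 3 controls was -0.06 and 0.18 in the females, 1.71 in male replicate 3 and 0.83 in male replicate 4. Without heterozygote replicate 3 as well, the median was 0.43 and 3 genes reached an unadjusted p under 0.05. The median was -0.14 between females and 1.45 between males.

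Interferon-stimulated genes are switched on through a short DNA element in their promoters. To show the sequence these genes share apart from their values, a motif made of GAAA, any 2 bases and GAAA again was searched on both strands in the 250 bases before and 50 after each start (RefSeq, GRCm38.p6). It was in 11 of the 17 tested interferon genes with a sequence (64.7%), in 2.67% of 9068 tested genes and in 3.49% of all 27025 promoters. A match is a description of the letters, not a bound site. The 250 bases before the start are given for 3 genes that hold a match there, with the match in capitals. Rsad2 falls under the naming rule, and Ifit3 and Isg15 were chosen after their values were seen. The windows are chr12:26456453-26456702 on the minus strand for Rsad2, chr19:34583279-34583528 on the plus strand for Ifit3 and chr4:156200819-156201068 on the minus strand for Isg15.
Rsad2: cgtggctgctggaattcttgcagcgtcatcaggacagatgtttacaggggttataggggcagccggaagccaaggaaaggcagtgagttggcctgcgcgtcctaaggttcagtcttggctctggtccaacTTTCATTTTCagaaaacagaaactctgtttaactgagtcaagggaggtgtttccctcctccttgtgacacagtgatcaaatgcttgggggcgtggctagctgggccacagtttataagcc
Ifit3: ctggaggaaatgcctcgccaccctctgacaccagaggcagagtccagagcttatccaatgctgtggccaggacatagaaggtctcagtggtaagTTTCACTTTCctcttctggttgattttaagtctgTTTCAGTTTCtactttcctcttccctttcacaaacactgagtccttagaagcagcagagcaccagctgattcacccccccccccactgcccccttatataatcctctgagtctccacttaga
Isg15: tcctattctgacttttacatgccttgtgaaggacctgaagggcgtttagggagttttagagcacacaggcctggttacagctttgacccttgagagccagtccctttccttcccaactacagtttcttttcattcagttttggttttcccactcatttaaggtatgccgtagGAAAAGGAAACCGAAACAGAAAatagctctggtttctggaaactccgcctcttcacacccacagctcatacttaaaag

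Rsad2, the antiviral enzyme viperin, holds 1 match, 110 bases before the start. Its level was 1.39, 1.47, 10.6 and 2.87 RPKM in the heterozygotes and 0.784, 1.42, 1.82 and 0.890 RPKM in the controls (1.09, SE 0.38, limma adjusted p = 0.440, and 0.88 with all libraries). Ifit3, an inhibitor of viral RNA translation, holds 2 matches, the nearer 112 bases before the start. It was at 5.92, 7.95, 50.3 and 21.6 RPKM against 3.92, 9.96, 2.20 and 6.24 RPKM (1.25, SE 0.50, adjusted p = 0.519, and 1.46 with all libraries). Isg15, a ubiquitin-like modifier, holds 3 matches, the nearest 56 bases before the start, and was at 1.64, 1.09, 10.5 and 3.25 RPKM against 1.61, 3.11, 0.758 and 1.78 RPKM. In these 3 genes heterozygote replicate 3 was highest and replicate 4 came next, with the females among the controls. Oasl2 and Irf7, which hold no match in this window, had the same order, at 0.669, 1.51, 7.06 and 2.32 RPKM and at 0.462, 0.998, 4.53 and 1.78 RPKM in the heterozygotes. Their controls were at 0.183 to 0.817 RPKM and 0.145 to 0.632 RPKM.

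**Figure D4:**
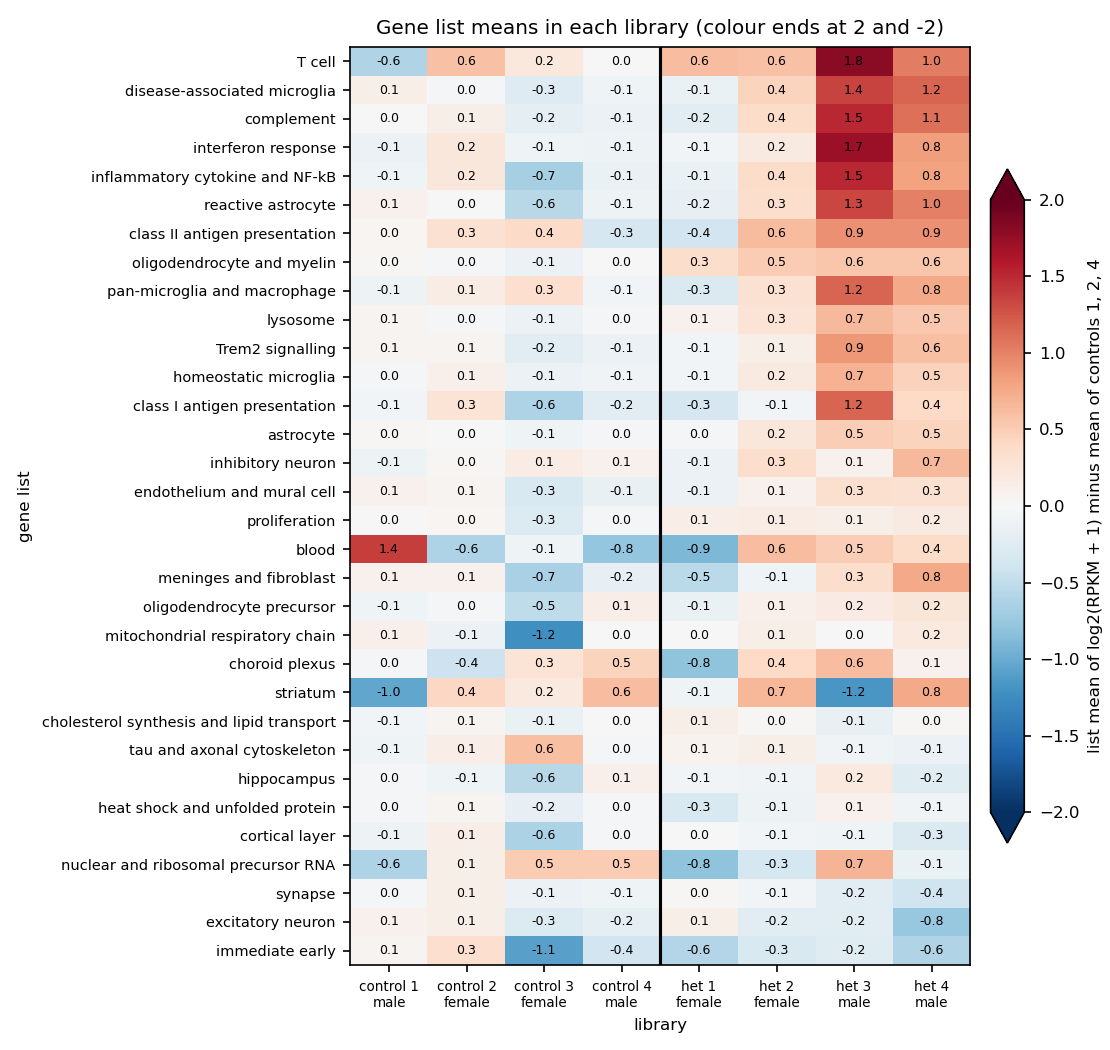
Mean of log2(RPKM + 1) over the tested genes of each list in each library, minus the mean of controls 1, 2 and 4, with controls left and heterozygotes right of the line. The microglial, complement, interferon and reactive astrocyte lists are highest in heterozygote replicates 3 and 4, the myelin list is above 0 in all 4, and control replicate 3 is low for the mitochondrial and immediate early lists.

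Reactive astrocyte genes followed the microglial order. All 16 tested members were higher without control replicate 3, with a median of 0.50 and 8 at an unadjusted p under 0.05. With all libraries 15 were higher, the median was 0.82 and 9 reached that p. The list mean relative to the 3 controls was -0.17, 0.35, 1.34 and 1.01 in heterozygote replicates 1 to 4. Vim, the intermediate filament vimentin, was at 11.4, 20.5, 57.2 and 40.6 RPKM against 15.7, 11.5, 8.13 and 13.2 RPKM in the controls (1.10, SE 0.30, limma adjusted p = 0.334, and 1.15 with all libraries). Stat3, the transcription factor of the astrocyte reaction, was at 26.6, 28.3, 35.6 and 36.9 RPKM against 19.8, 20.5, 4.94 and 24.5 RPKM, with no overlap (0.57, SE 0.14, adjusted p = 0.332, and 1.01 with all libraries). Gfap, the filament by which reactive astrocytes are stained, lies outside the naming rule and was at 4.78, 14.9, 55.5 and 30.7 RPKM against 7.35, 8.60, 32.4 and 4.75 RPKM. Of 18 tested genes of resting astrocyte function 17 were higher without control replicate 3 (median 0.31), 7 reached an unadjusted p under 0.05, all higher, and 6 had all heterozygotes above the 3 controls. The shares over all genes tested were 54.8%, 4.99% and 4.55%. With all libraries 14 were higher (median 0.26), 7 reached that p and 5 lay wholly above the controls. Mlc1, a membrane protein of astrocyte endfeet, was at 86.3, 113, 133 and 129 RPKM against 86.0, 77.2, 79.0 and 71.5 RPKM (0.58, SE 0.17, adjusted p = 0.359, and 0.53 with all libraries). Slc7a10, an amino acid transporter of astrocytes, was at 6.75, 6.13, 6.07 and 8.49 RPKM against 4.36, 4.85, 1.18 and 4.06 RPKM, and was higher in both sexes.

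Myelin genes had higher values in all 4 heterozygotes alike. All 20 members were tested and all 20 were higher, with a median of 0.48 without control replicate 3 and 0.42 with it. Without that library 15 reached an unadjusted p under 0.05, all higher (4.99% of all genes tested did). Of the members, 14 then had all heterozygotes above the 3 controls, where 4.55% of all genes tested did. With all 4 controls these counts were 11 and 6, against 6.31% and 2.66% of all genes tested. Mag was the member that passed. The list mean relative to the 3 controls was 0.35, 0.50, 0.56 and 0.55 in heterozygote replicates 1 to 4, and the median was 0.39 between females and 0.48 between males. Leaving out heterozygote replicate 3 as well gave 0.49, with 14 at an unadjusted p under 0.05. Mog, a glycoprotein of the outer myelin surface, was at 44.3, 40.1, 37.8 and 36.7 RPKM in the heterozygotes and at 28.5, 19.6, 5.26 and 24.4 RPKM in the controls, with no overlap (0.74, SE 0.17, limma adjusted p = 0.307, and 1.20 with all libraries). Cnp, an enzyme of non-compact myelin, was at 56.9, 67.7, 76.7 and 80.1 RPKM against 49.1, 43.1, 85.2 and 44.4 RPKM (0.63, SE 0.15, adjusted p = 0.307, and 0.38 with all libraries). The major structural gene Mbp, outside the naming rule, had a difference of 0.43 (0.68 with all libraries) and overlapped with the controls. Against the other tau genotypes the list median was 0.08 (P301S+ TREM2+/+) and -0.06 (knockouts). Oligodendrocyte precursor genes had a median of 0.13 over 13 tested, and 1 reached an unadjusted p under 0.05 (0.07 and 2 with all libraries).

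**Figure D5:**
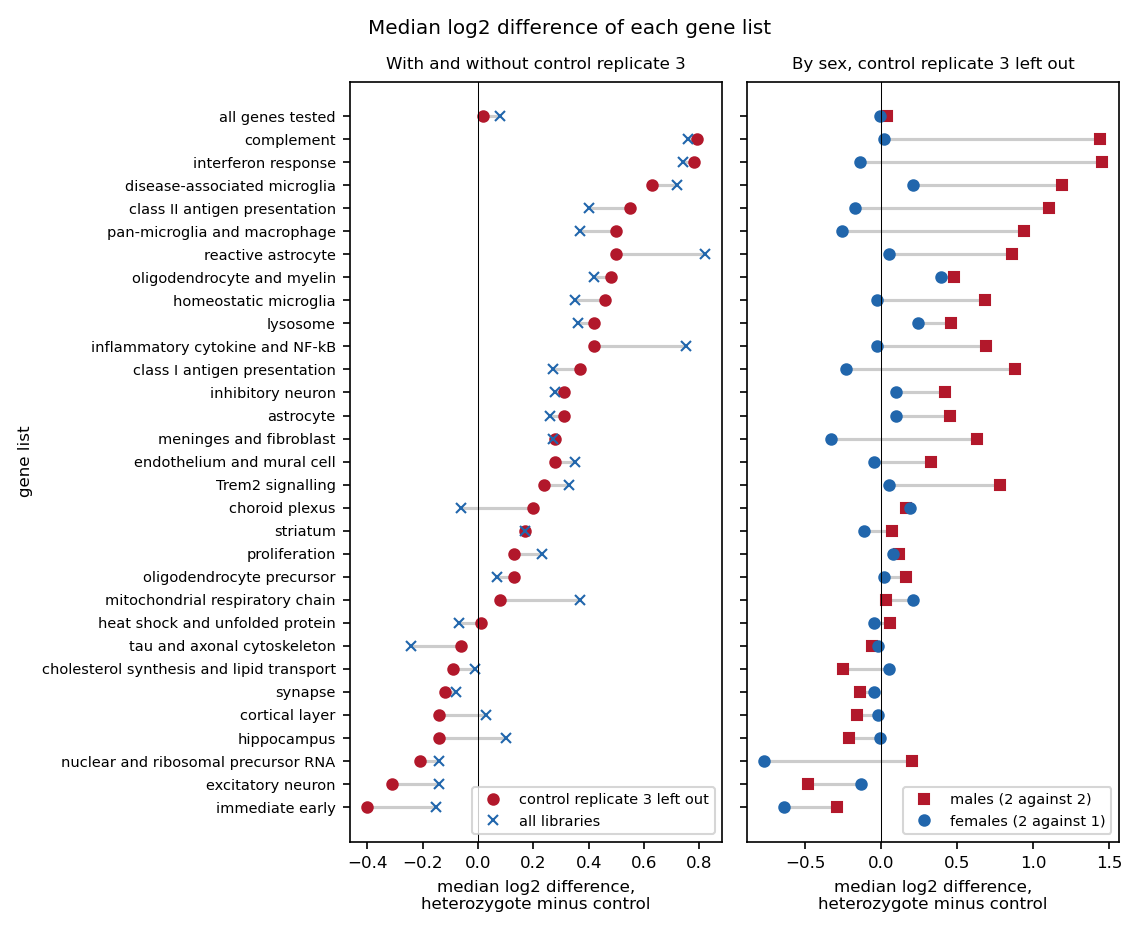
Median log2 difference between heterozygotes and controls for each gene list with at least 5 tested genes and for all genes tested: left, without (circles) and with (crosses) control replicate 3; right, males (squares, 2 against 2 mice) and females (circles, 2 against 1) without it. The complement, interferon and disease-associated microglia medians lie between 1.19 and 1.45 in males and between -0.14 and 0.21 in females, while the myelin median is 0.48 and 0.39.

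Excitatory neuron genes were mostly lower, by small amounts, once control replicate 3 was left out. Of 17 tested 15 then had a negative difference, with a median of -0.31. Of these, 2 reached an unadjusted p under 0.05, where 3.76% of all genes tested were lower at that p. With all libraries 10 were negative, the median was -0.14 and 3 reached that p (3.29% of all genes tested were lower at it). The share of all genes tested with a positive difference was 54.8% without control replicate 3 and 59.5% with all libraries. Camk2a, the kinase of the postsynaptic density, was at 312, 295, 258 and 159.8 RPKM in the heterozygotes and at 305, 569.8, 1241 and 300.2 RPKM in the controls (-0.67, SE 0.20, limma adjusted p = 0.366, and -1.02 with all libraries). Slc17a7, the vesicular glutamate transporter, was at 167, 109, 139 and 64.0 RPKM against 172, 185, 274 and 136 RPKM (-0.60, SE 0.27, adjusted p = 0.553, and -0.71 with all libraries). Replicate 4 was the lowest for both, and its list mean was -0.76 relative to the 3 controls, against 0.11, -0.21 and -0.22 in replicates 1 to 3. Inhibitory neuron genes had a median of 0.31 over 16 tested, with none at an unadjusted p under 0.05 (0.28 and 1 with all libraries). Of 20 synaptic genes 14 had a negative difference (median -0.12) and 5 reached an unadjusted p under 0.05. With all libraries 12 were negative (median -0.08) and 2 reached that p. Snap25, a fusion protein of the presynaptic terminal, was at 839, 944, 1065 and 652 RPKM against 1551, 1476, 419 and 1291 RPKM, wholly below the 3 controls (-0.69, SE 0.31, adjusted p = 0.555, and -0.29 with all libraries). The median of 19 tested cortical layer genes turned sign with control replicate 3, at -0.14 without it and 0.03 with all libraries.

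Immediate early genes, which neurons switch on within minutes of activity, had a median of -0.40 over 16 tested without control replicate 3 and -0.15 with it. Without it 13 were lower and 5 reached an unadjusted p under 0.05, and with all libraries 9 were lower and 1 did. Of all genes tested, 3.76% were lower at that p without control replicate 3 and 3.29% with all libraries. At any p, 54.8% of all genes tested were higher without control replicate 3 and 59.5% with all libraries. The list mean in control replicate 3 was itself low, and control replicate 2 was the highest of the remaining controls. Junb was at 29.7, 39.8, 36.0 and 29.9 RPKM in the heterozygotes and at 44.2, 90.2, 27.0 and 46.6 RPKM in the controls (-0.80, SE 0.27, limma adjusted p = 0.429, and -0.49 with all libraries). Nr4a1, a nuclear receptor of this class, was at 4.08, 8.20, 10.2 and 3.59 RPKM against 28.4, 30.9, 1.54 and 16.7 RPKM (-1.77, SE 0.69, adjusted p = 0.503, and -1.03 with all libraries). Both lay wholly below the 3 controls and overlapped once replicate 3 was included. Fos was at 4.42, 8.77, 15.8 and 8.76 RPKM against 18.5, 24.5, 59.95 and 11.2 RPKM. The time between handling and dissection is not given in the labels, and its part in these values was not tested.

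Genes of tau and the axonal cytoskeleton had a median of -0.06 over 22 tested (-0.24 with all libraries). Prnp, which this list holds, was the member that passed. Kif5a, a motor of axonal transport, was at 132, 130.2, 103 and 82.3 RPKM against 126, 171, 204 and 128 RPKM (-0.41, SE 0.14, limma adjusted p = 0.415, and -0.49 with all libraries), and Stmn2, a microtubule regulator of growing axons, at 377, 376, 370.4 and 315 RPKM against 436, 435, 374 and 479.9 RPKM. Heat shock and unfolded protein genes had a median of 0.01 over 19 tested (-0.07 with all libraries), while the inducible chaperones Hspa1a and Hspa1b had lower values together once control replicate 3 was left out. Hspa1b was at 4.18, 4.99, 4.99 and 4.98 RPKM in the heterozygotes and at 8.02, 6.98, 0.340 and 8.93 RPKM in the controls (-0.62, SE 0.12, adjusted p = 0.298, and 0.05 with all libraries), and Hspa1a at 5.15, 4.42, 8.47 and 4.76 RPKM against 12.6, 9.36, 0.751 and 10.7 RPKM (-0.80, SE 0.18, adjusted p = 0.307, and -0.16 with all libraries). These near-identical neighbours on chromosome 17 share sequence, so the division of reads between them is uncertain, and control replicate 3 again lay on the opposite side.

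Lysosomal genes were higher in 21 of 23 tested without control replicate 3, with a median of 0.42, 11 at an unadjusted p under 0.05, all higher, and 4 wholly above the 3 controls. The shares over all genes tested were 54.8%, 4.99% and 4.55%. With all libraries 20 were higher, the median was 0.36, 9 reached that p and 1 lay wholly above the controls. Lamp1, a membrane protein of the lysosome, was at 379, 385, 397 and 406 RPKM in the heterozygotes and at 333, 253, 499 and 269 RPKM in the controls (0.48, SE 0.13, limma adjusted p = 0.332, and 0.26 with all libraries). The list mean relative to the 3 controls was 0.09, 0.27, 0.65 and 0.54 in replicates 1 to 4. Genes of cholesterol synthesis and lipid transport had a median of -0.09 over 21 tested (-0.01 with all libraries). Sqle, an enzyme of sterol synthesis, was at 20.03, 16.8, 11.97 and 15.04 RPKM against 20.2, 21.4, 18.01 and 22.2 RPKM, opposite in sign to Abca1 and Apoe of the same list (-0.44, SE 0.13, adjusted p = 0.370, and -0.36 with all libraries). Respiratory chain genes had a median of 0.08 over 20 tested, against 0.37 with all libraries, where control replicate 3 was low.

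Genes of vessels and of tissue that borders the cortex gave no called difference. Endothelial and mural genes had a median of 0.28 over 19 tested, with 1 at an unadjusted p under 0.05 in each direction. With all libraries the median was 0.35, with 7 higher and 1 lower at that p. Among all genes tested 4.99% were higher and 3.76% lower at that p without control replicate 3. With all libraries these shares were 6.31% and 3.29%. Meningeal and fibroblast genes had a median of 0.28 over 11 tested (0.27 with all libraries) and striatal genes 0.17 over 11 in both fits. The medians of 10 choroid plexus genes (0.20 without control replicate 3, -0.06 with it) and of 8 hippocampal genes (-0.14 and 0.10) turned sign with that library. The striatal list varied within both groups, with a mean of -1.17 in heterozygote replicate 3 and -1.04 in control replicate 1 relative to the 3 controls, so the heterozygote with the highest interferon and complement means was also the one with the lowest striatal mean. The part of dissection in these results was not tested. Of the T cell genes, Cd4 and Ccl5 were the 2 tested, and Ccl5 was at 1.08, 1.17, 21.4 and 2.49 RPKM in the heterozygotes against 0 to 1.08 RPKM in the controls. Of the blood genes, S100a8 and S100a9 were the 2 tested, with a median of 0.30 (0.16 with all libraries). Nuclear and ribosomal precursor RNAs had a median of -0.21 over 8 tested (-0.14 with all libraries) and 5 proliferation genes a median of 0.13 (0.23).

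Males and females were then compared with controls of their own sex. Without control replicate 3, 32 genes passed between males (limma adjusted p under 0.05, 0.265% of genes tested), 29 higher and 3 lower, and 1 gene, Rps18, passed between females (0.00830%), where the controls held 1 mouse. At an unadjusted p under 0.05 the fit without that library had 10.5% of genes in males and 8.05% in females. With all libraries 1 gene passed between males (Clec7a, 0.00830%, with 4.31% of genes at an unadjusted p under 0.05) and 0 between females (2972 at an unadjusted p under 0.05, 24.7%). Ccl4, Clec7a, Cst7, Lyz2, Laptm5, Ctsd, H2-K1, C3ar1, C1qc, C4b, Tyrobp, Vim, Gusb, Abca1, Flywch1 and Prnp were among those that rose in males. The male difference was 3.73 for Cst7 (SE 0.57, adjusted p = 0.0295), 3.17 for Clec7a (SE 0.38, adjusted p = 0.0136), 3.14 for Ccl4 (SE 0.36, adjusted p = 0.0136) and 2.51 for Ifit3 (SE 0.35, adjusted p = 0.0295). The corresponding female values were 0.91, 0.27, 0.03 and -0.48. Gtpbp2 fell by 2.16 in males (SE 0.34, adjusted p = 0.0295), and its female value was -2.93. Of the 32 genes, 25 belong to a list and 8 had the opposite sign in females. Of the 12055 genes tested, 442 belong to a list. The lists were chosen with earlier results of these data known, so the 25 are no independent evidence for them. The count of 32 rests on single mice. Leaving out heterozygote replicate 3, the male with the highest Xist value of its sex, gave 0 genes between males (1354 at an unadjusted p under 0.05), leaving out heterozygote replicate 4 gave 34 (19 of them shared with the 32), and leaving out control replicate 1 or 4 gave 1 and 0, each with a lone mouse assumed to vary like the other groups.

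A test of the difference between the male and female effects gave 0 genes after adjustment (limma, 0%), both with all libraries (1074 at an unadjusted p under 0.05, 8.91%) and without control replicate 3 (601, 4.99%). The lowest adjusted p of any gene in the lists was 0.453 with all libraries and 0.501 without control replicate 3, where Ccl4 and Ifit3 were among the genes at that value. For 15 of the 21 tested interferon genes, 10 of 24 disease-associated microglia genes and 0 of 20 myelin genes the unadjusted p of this difference was under 0.05 without control replicate 3. No gene passed this test, and the sexes are therefore described by their own values.

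The heterozygotes were also tested directly against the other tau genotypes. Against P301S+ TREM2+/+ cortex, 0 genes passed with all libraries (limma, 0%, 325 at an unadjusted p under 0.05, 2.70%) and 0 without control replicate 3 (0%, 1241 at an unadjusted p under 0.05, 10.3%). For Trem2 the difference was -1.17 (SE 0.39, adjusted p = 0.433), for Abca1 0.60 (SE 0.19, adjusted p = 0.433) and for Cd14 0.52 (SE 0.15, adjusted p = 0.433). The list medians were -0.05 for disease-associated microglia, 0.26 for interferon and 0.08 for myelin. Against the knockouts, 0 genes passed with all libraries (limma, 0%, 411 at an unadjusted p under 0.05, 3.41%). Without control replicate 3, which changes only the shared spread, 2 passed (0.0166%, 949 at an unadjusted p under 0.05, 7.87%). Flywch1 rose by 1.64 relative to the knockouts (SE 0.14, adjusted p = 0.000182), with heterozygotes at 22.4 to 38.4 RPKM and knockouts at 7.96 to 9.84 RPKM, and C1qtnf4 by 1.61 (SE 0.22, adjusted p = 0.0211), with knockouts at 7.18 to 12.7 RPKM. Usp19 was lower than in the knockouts by a difference of -0.98 (SE 0.16) that missed the threshold (adjusted p = 0.0917). The list medians relative to the knockouts were 0.44 for disease-associated microglia, 0.42 for interferon, 0.51 for complement and -0.06 for myelin.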

How the data were processed

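Cortex of 16 mice was profiled by Lexogen QuantSeq, a 3' method, and read on a HiSeq4000 instrument, per the labels. The submitters' processing notes name the build mm10 and the tools limma, edgeR, HTSeq and STAR, with neither role nor version. The unit of the deposited values is not named in their headers. That the authors deposited RPKM was taken from the values: 18911 of the 18911 genes above 0 gave back whole reads (100.0%, tolerance 0.0001 reads or a relative 2e-08), with 1 read worth an amount set by the library total and the gene length. Dividing by length does not suit 3' reads, so levels were not compared between genes. Of 24060 genes listed, each file also had 1 line naming no gene, which was not used, and 2 symbols occurred repeatedly.

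Differences were fitted with limma 3.58.1 in R 4.3.3 (lmFit, eBayes with trend) on log2(RPKM + 1), with genotype and sex over all 16 libraries (11 residual degrees of freedom) and over 15 without control replicate 3 (10). The pseudocount understates changes of low genes. P-values were adjusted by Benjamini-Hochberg over the 12055 genes with a mean of at least 1 RPKM. That filter admits genes that reach it through the heterozygotes or the controls alone. For these the direction follows from the filter, and counts of higher or lower list members include them. Sex differences came from a genotype-by-sex term (8 and 7 residual degrees of freedom). Ratios and depths were compared by exact permutation with scipy 1.17.1. Libraries of a genotype differed beyond sampling noise (lowest chi-square per gene 6.87, genes of at least 20 reads). No molecular identifiers are named, PCR copies may therefore be counted, and read numbers give counting error only.

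On simulated data, 82 of 100 genes changed by 1 on the log2 scale were recovered with all libraries and 73 of 100 without control replicate 3, and all 100 of those changed by 2 in each. Of the unchanged genes, 5 and 6 were called. The run used 12055 genes. Every simulated library, that of control replicate 3 included, was drawn around the means of the other libraries with the same fixed spread. The simulated set therefore held no deviant library, and these counts do not give the recovery in the real fits.

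The 32 gene lists (536 genes, 442 tested, 2 not in the files) and the members were chosen with earlier results of these data known. Named were Trem2, Tyrobp, Prnp and Mapt; the 12 genes of lowest p in each direction without control replicate 3; the 6 in each direction with all libraries; up to 4 of lowest p per list; and the 5 per direction of greatest difference among genes without overlap between the 4 and 4 mice. Symbols of the form Gm plus digits or ending in Rik, Y-linked genes and Xist were counted but not named as results. Itgax, C3, Gfap, Mbp, Ifit3, Isg15 and Rps18 fall outside this rule and were chosen after their values were seen. A few genes that the rule names are not reported here. Gene positions are from GENCODE M21 (GRCm38, the build of mm10) and promoters from RefSeq GRCm38.p6. Emr1 and Ctgf had no position. The alternatives were other pseudocounts, filters, scaling, array weights, limma-voom on recovered reads, no sex term, only the compared genotypes and leaving out each mouse. Leaving out each male for the comparison of males was added after seeing the data.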

Additional observations from a re-analysis of the deposited data

Results flagged for a closer look

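In each group of 4 mice, a library was picked out where its gap to the nearest of the others, as a share of the group's range, was above Dixon's critical value. Of 372 groups looked at, 45 had such a library, and 27 of the 45 were control replicate 3. The usual rate of about 1 in 20 holds for normally distributed values of genes not chosen by these data. Many of these genes were named for a low p without control replicate 3, which favours genes whose other controls lie close together. The 45 and the 27 therefore cannot be set against that rate. All gene values here are RPKM.

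Control replicate 3 stood above the other 3 controls for myelin genes, with Mag at 177 (others 32.5 to 35.4), Cnp at 85.2 and the oligodendrocyte factor Nkx6-2 at 16.4, and for the lipid and lysosome genes Apoe at 1145, Abca1 at 4.64 and Ctsd at 415. It was also high for Flywch1 at 47.4 (others 9.26 to 14.2), C1qtnf4 at 124, Syt17 at 34.4, Ccdc3 at 13.2, Snora30 at 680.4, Tapbp at 90.7, Dlx1 at 21.7, Map6 at 44.8, Pdia4 at 24.2, Ddit3 at 216, Cox4i1 at 2141, Aqp1 at 7.96 and Fibcd1 at 10.9. It stood below them for the complement gene C1qc at 10.9, and for Mir5136 at 0, Usp19 at 9.92, Cys1 at 0.104, Znrf3 at 0.424, Tnfrsf1a at 1.77 and Tle4 at 19.00. The mean log2(RPKM + 1) of the mitochondrial list was 6.76 in it, against 7.88 to 8.09 in the other controls.

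Among the other controls, replicate 1 was high for Plekhb1 at 33.7 and S100a9 at 7.47, and replicate 2 for Ccl3 at 0.350 and for the interferon list, whose mean log2(RPKM + 1) was 1.82 against 1.49 to 1.52.

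Of the heterozygotes, replicate 3 (a male) was high for Rsad2 at 10.6, Ccl5 at 21.4, Ctgf at 19.6, Gtpbp2 at 3.21 and Miat at 5.75. Replicate 4 was high for Vamp5 at 7.06 and Dlx1 at 32.8, and low for Ccdc3 at 2.85 and Stmn2 at 315. Replicate 1 was low for Hspa1b at 4.18, for Trf at 85.3 and for the blood list, whose mean log2(RPKM + 1) was 0.61 against 1.88 to 2.12, and was the heterozygote with reads for Snord91a (1.59) and Snord49a (1.54), where the others were at 0. No cause of these values was tested.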

How the results depend on the processing

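No paired analysis was possible because the labels give no replicate numbers, and those used here follow accession order and pair no mice. Of the counts of genes at an adjusted p under 0.05 (limma, Benjamini-Hochberg), that of heterozygotes against controls over all 16 libraries was 0, became 131 with array weights (75 higher, 56 lower) and 1 with limma-voom on recovered reads (Prnp), and ranged from 0 to 3 with 1 mouse left out. The array weights gave control replicate 3 a weight of 0.0445 and heterozygote replicate 2 one of 4.56. Leaving out control replicate 3 gave a count of 3. It became 0 with only the 2 genotypes compared, 28 with array weights (21 higher, 7 lower) and 5 without both P301S+ TREM2+/+ females, and ranged from 0 (without control replicate 4) to 4 with 1 more mouse left out. Prnp and Flywch1 missed the threshold with only the 2 genotypes (adjusted p = 0.0822 and 0.0542) and without control replicate 4 (0.0542 and 0.0793). Mag missed it under median-of-ratios scaling (0.0910), with only the 2 genotypes (0.0542) and with any 1 further mouse left out (0.0626 to 0.191).

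Against P301S+ TREM2+/+ mice the counts were 0, and ranged from 0 to 1 in both fits, with the 1 seen without heterozygote replicate 2. Against TREM2 knockout tau mice the count over all 16 libraries went from 0 to 5 with array weights, and ranged from 0 to 2 with 1 mouse left out. That count, 2 when control replicate 3 was left out, became 1 with no sex term, 5 with array weights and 37 without both P301S+ TREM2+/+ females, and ranged from 1 to 3. Genes whose 4 and 4 mice did not overlap numbered 321 higher and 202 lower; with 1 mouse left out they ranged from 395 to 778 and from 257 to 654, since fewer mice had to be ordered, and the lower count was 133 at a mean RPKM of at least 5. Leaving out control replicate 3 took the count from 0 to 1 in females and from 1 to 32 in males, and the 32 ranged from 0 to 34 with 1 more male left out. Apart from that ordering, the cause of these moves was not tested.

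Without control replicate 3, 2531 of 2544 values of named genes kept their direction. With all 16 libraries the sign turned with array weights for Trem2 (0.06), Hspa1b (-0.54), Cys1 (-0.56), Tapbp (0.32), Npy (0.18), Pdia4 (0.41), Ddit3 (0.14), Cox4i1 (0.31), Aqp1 (0.40), Neurod1 (-0.63), Fibcd1 (0.20), S100a9 (0.52) and Rn45s (0.39). It turned with a pseudocount of 5 for Hspa1b (-0.09), Cys1 (-0.08) and Neurod1 (-0.05), with scaling for Cys1 (-0.02), Ptprz1 (-0.06) and Neurod1 (-0.07), and with limma-voom for Chn1 (0.01) and Neurod1 (-0.05). Leaving control replicate 3 out, it turned with array weights for S100a9 (0.55). With all 16 libraries and 1 mouse left out, the log2 difference ranged for Trem2 from -0.49 to 0.29, Nkx6-2 from -0.03 to 0.77, Hspa1b from -0.62 to 0.32, Hspa1a from -0.80 to 0.13, Dusp18 from -0.52 to 0.02, Cys1 from -0.58 to 0.30, Tapbp from -0.87 to 0.36, H2-DMb1 from -0.09 to 0.55, Ptprz1 from -0.13 to 0.29, Chn1 from -0.32 to 0.12, Dlx1 from -0.03 to 0.74, Npy from -0.23 to 0.27 and Ctgf from -1.35 to 0.28. It ranged for Arc from -0.83 to 0.17, Pdia4 from -0.28 to 0.38, Ddit3 from -0.71 to 0.30, Cox4i1 from -0.59 to 0.27, Aqp1 from -0.63 to 0.40, Rgs9 from -0.29 to 0.58, Tac1 from -0.04 to 0.94, Pdyn from -0.02 to 0.65, Neurod1 from -0.56 to 0.25, Fibcd1 from -0.42 to 0.37, S100a9 from -0.64 to 0.17, Cd4 from -0.06 to 0.58, Rn45s from -0.38 to 0.32 and Miat from -0.49 to 0.09. Without control replicate 3 and 1 more mouse it ranged for Trem2 from -0.21 to 0.52, Pcna from -0.06 to 0.31, Rgs9 from -0.04 to 0.95, Pdyn from -0.06 to 0.68, Adora2a from -1.61 to 0.60, S100a9 from -0.61 to 0.44 and Cd4 from -0.28 to 0.66. Differences of these genes have no settled sign. Depth limits the low genes, whose differences the pseudocount shrinks.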
